A study of Mus musculus with 6 samples.

Results

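The genes described here are 34 genes of glycolysis, gluconeogenesis and glycogen metabolism, chosen by name from the 41388 genes of an RNA-seq table of primary murine hepatocytes. They were taken as a list of enzymes, transporters and regulators and matched by Ensembl identifier to GENCODE M21 symbols. The rule itself uses no measured value, but the list was chosen with earlier results of these data known. All 34 were present in the table. Within them, 8 genes encode forms best known from liver (*Pfkl*, *Pfkfb1*, *Pklr*, *Pck1*, *Fbp1*, *G6pc*, *Gys2* and *Pygl*), 11 encode forms that are ubiquitous or best known from other tissues, and 15 fall in neither class.

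Hepatocytes of C57BL/6J mice, freed from liver by collagenase and left overnight in culture, received an adenovirus at about 1000000 viral particles per 1000000 cells, and RNA was taken 24 h later. In 3 libraries (replicates 1, 2 and 3) the virus encoded β-galactosidase (β-gal), a bacterial enzyme used as the control protein, and in 3 (replicates 7, 8 and 9) it encoded Aloxe3, a lipoxygenase family enzyme that converts fatty acid hydroperoxides. Both groups therefore carried virus, and no library of untreated cells was analysed here. The age and sex of the mice are not given in the labels, and nothing says whether the libraries of a group came from separate animals or cultures, so the p-values below measure the spread between these libraries, which may be technical.

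Levels are given as RPKM, reads per kilobase of gene per 1000000 reads of the library, which makes genes of different length comparable. Library sizes were 29575553 to 32431318 reads in the β-gal group and 25521908 to 30399198 reads in the Aloxe3 group. *Aloxe3* itself was at 2.04, 2.06 and 1.74 RPKM in the β-gal libraries and at 42.3, 45.8 and 56.4 RPKM in the Aloxe3 libraries, as the labels have it. Its log2 fold change was 4.05 ± 0.10 (SE), with an adjusted p of 4.74e-06 in limma. Among hepatocyte markers *Alb* was at 4362 to 4552 RPKM, while *Cps1* and *Cyp2e1* had β-gal means of 0.985 and 2.17 RPKM. Kupffer cell markers summed to 150 to 153 RPKM in the β-gal group and 133 to 146 RPKM in the Aloxe3 group, nearly all of it *Cd68*, while the Kupffer markers *Clec4f*, *Vsig4* and *Timd4* were under 0.5 RPKM. Endothelial markers summed to 24.6 to 28.7 against 24.5 to 28.6 RPKM, with *Clec4g* and *Lyve1* at means under 0.5 RPKM. Stellate markers summed to 3.39 to 3.94 against 3.54 to 3.86 RPKM. Of these *Lrat* was at 0, and *Des*, *Pdgfrb* and *Reln* had means under 0.5 RPKM. Cholangiocyte markers summed to 1510 to 1590 against 1580 to 1720 RPKM, most of it *Spp1*, while *Krt7* and *Epcam* had means under 0.5 RPKM. Hepatocyte markers summed to 5030 to 5080 against 4860 to 5000 RPKM, nearly all of it *Alb*. Of the 9 tested hepatocyte markers 6 had a log2 fold change below 0, and 1 was called, lower (-0.30, adjusted p = 0.0448), beside 0.0394% of all genes. With 1 library left out its adjusted p was 0.0793 to 0.15, so that the call needed all 6. Every Aloxe3 library lay below every β-gal library for that marker and for *Apoa1*, *Apoc3* and *Serpina1a*, the last 3 with means at 93.2%, 91.2% and 92.4% of the β-gal mean and not called. *Cps1*, at 0.985 ± 0.0690 against 1.496 ± 0.181 RPKM (SD, n = 3; adjusted p = 0.161), and *Tat*, at 0.278 ± 0.0778 against 0.578 ± 0.122 RPKM and not tested, had all Aloxe3 libraries above all β-gal libraries. With voom in limma on reads derived from RPKM, *Cps1* was called higher (0.589, adjusted p = 0.0138), beside 1.17% of all genes. The called lower marker stayed called there (adjusted p = 0.00188), beside 0.205% of all genes. In bulk RNA, fewer cells of a type and less RNA per cell cannot be told apart, and the part of these marker levels in the results below was not tested.

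Glycolysis breaks glucose down to pyruvate, and gluconeogenesis, for which the liver is known, runs the path in reverse during fasting through enzymes of its own, namely pyruvate carboxylase, phosphoenolpyruvate carboxykinase, fructose bisphosphatase and glucose-6-phosphatase. The liver also stores glucose as glycogen and releases it again. At many of these steps the liver uses an isoenzyme that differs from the one in other tissues, such as the L-type pyruvate kinase in place of the M-type. Transcription of the L-type pyruvate kinase gene *Pklr* is known to respond to glucose through ChREBP, a factor encoded by *Mlxipl* that binds the carbohydrate response element.

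Promoter sequence shows where such an element lies among the members. RefSeq start sites on GRCm38.p6 were at hand for 33 of the 34 members, with 55 windows of 250 bases before to 50 bases after a start site. The carbohydrate response element, a pair of E-box-like motifs in a set spacing, was searched by its consensus on both strands after the data had been seen. It matched 1 of the 55 member windows and 39 of the 32851 windows of all genes (0.119%). The single match was in *Pklr*, from base -170 to base -154 before the start site, in chr3:89136373-89136622 on the plus strand (capitals mark the match). The plain E-box CACGTG, read the same on both strands, was in 9.09% of member windows and 7.15% of all windows. It lay in *Ldha*, *Pcx*, *Pdk2*, *Pfkfb3* and *Pfkm*. *Ldha*, which makes the A subunit of lactate dehydrogenase, held it in 2 places, in chr7:46845554-46845803 on the plus strand (capitals mark CACGTG). The core ACGTG, searched on both strands and contained in every CACGTG, was in 34.5% of member windows against 19.6% of all windows, over 16 members. These are matches of letters and not sites of binding. The windows of *Pklr* and *Ldha* are shown for their matches and their small p below. *Hk1*, *Pfkl*, *Fbp1* and *Dlat* had a smaller p than *Pklr* and neither a carbohydrate response element match nor CACGTG. The other members with CACGTG had log2 fold changes of 0.062 (*Pcx*), 0.17 (*Pdk2*), 0.026 (*Pfkm*) and -0.022 (*Pfkfb3*). A relation between matches and levels was not tested.
Pklr: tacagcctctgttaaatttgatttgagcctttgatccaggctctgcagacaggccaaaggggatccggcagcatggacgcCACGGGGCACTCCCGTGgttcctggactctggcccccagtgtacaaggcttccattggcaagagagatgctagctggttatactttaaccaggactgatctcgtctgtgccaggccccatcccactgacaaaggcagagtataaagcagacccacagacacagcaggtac
Ldha: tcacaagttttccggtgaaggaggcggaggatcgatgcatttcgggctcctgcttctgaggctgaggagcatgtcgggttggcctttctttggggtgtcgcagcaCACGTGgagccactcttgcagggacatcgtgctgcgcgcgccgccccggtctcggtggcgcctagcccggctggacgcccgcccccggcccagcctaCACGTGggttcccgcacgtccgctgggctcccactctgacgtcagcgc

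The level of the members covered more than 3 orders of magnitude in RPKM, and the glycolytic genes stood at the top. *Pkm*, the M-type pyruvate kinase, was highest with a β-gal mean of 284.5 ± 10.1 RPKM (SD, n = 3), followed by *Ldha* at 257.5 ± 11.3, the muscle-type aldolase gene *Aldoa* at 228.8 ± 11.7 and the triose phosphate isomerase gene *Tpi1* at 173.7 ± 3.67 RPKM. In this order the β-gal libraries of neighbouring genes did not overlap. At the bottom were 3 liver genes. *Gys2*, liver glycogen synthase, had a β-gal mean of 0.284 ± 0.0645 RPKM, *Pck1*, the cytosolic phosphoenolpyruvate carboxykinase, 0.0708 ± 0.0110 RPKM, and *G6pc*, the catalytic subunit of glucose-6-phosphatase, 0.0447 ± 0.0291 RPKM. The order of *Pck1* and *G6pc* was not separable, as their β-gal libraries overlapped.

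**Figure D1:**
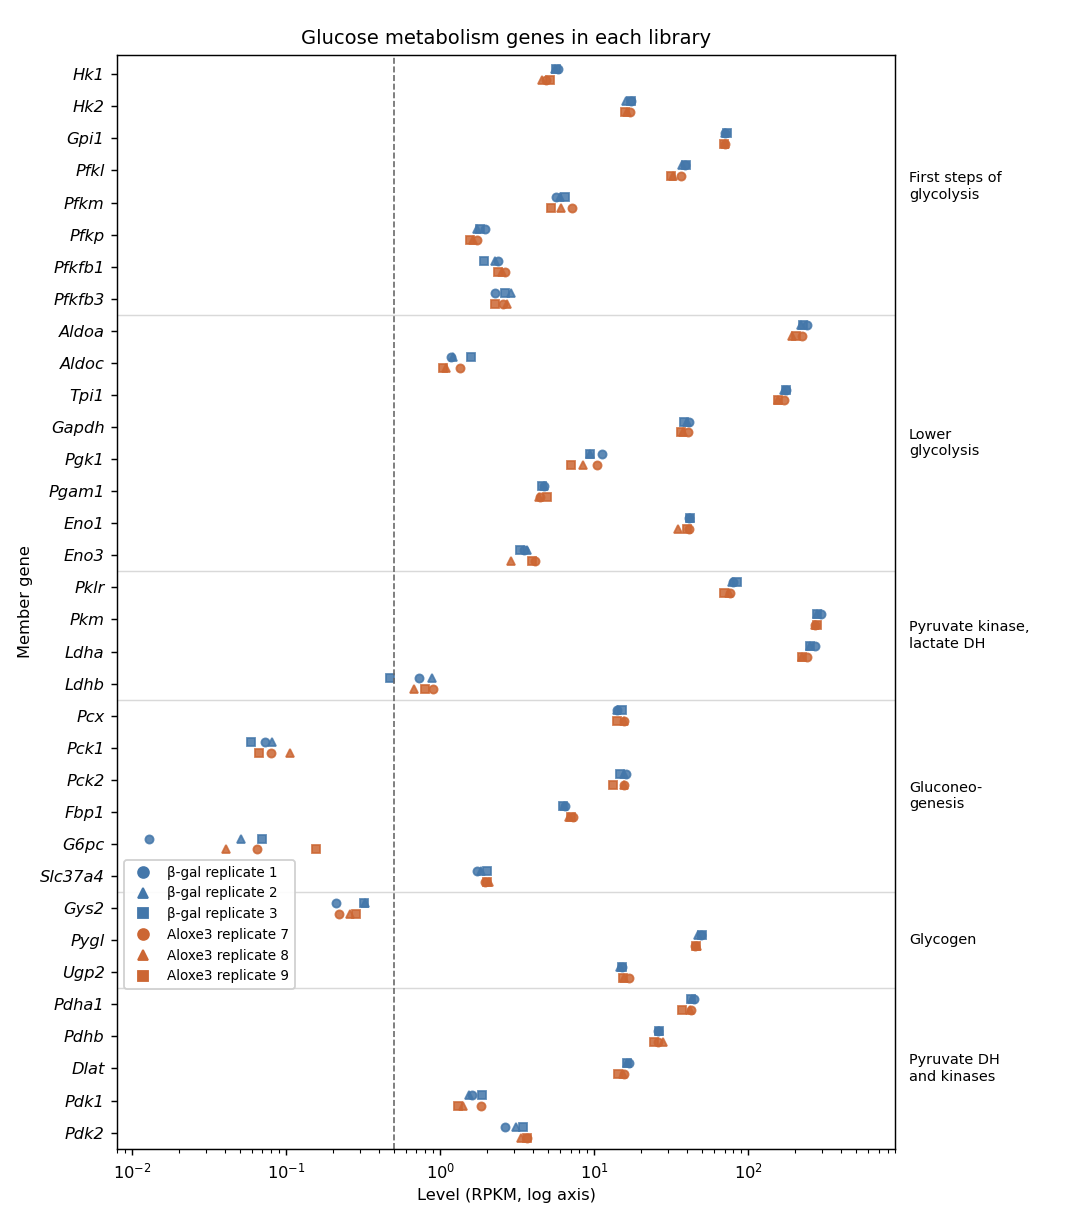
Level of the 34 members in each of the 6 libraries, in RPKM on a log axis, ordered by their role, with 1 symbol a library (blue, β-gal; orange, Aloxe3) and a dashed line at the mean of 0.5 RPKM under which genes were not tested. *Pkm*, *Ldha*, *Aldoa* and *Tpi1* lie at or above 156.1 RPKM in all libraries, and *Pck1*, *G6pc* and *Gys2* lie left of the dashed line.

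Levels rest on reads that align to 1 place, which holds back genes with processed copies elsewhere in the genome. Of the 50-base windows of the *Pgk1* transcripts, 53.9% occurred exactly in transcripts of another gene, all 5 of them pseudogenes. The share was 36.2% for *Pgam1*, 26.0% for *Eno1*, 25.8% for *Pkm*, 25.1% for *Gapdh* (with 215 pseudogenes among 223 other genes) and 21% for *Ldhb*. *Pklr* had 20.5% of its windows in 1 other gene that is no pseudogene. The levels of these genes are therefore uncertain, and *Gapdh* at 39.8, *Pgk1* at 10.0 and *Pgam1* at 4.68 RPKM cannot be ranked firmly against *Aldoa* or *Tpi1*. No window was shared for *Hk2*, *Aldoc*, *Eno3*, *Pcx*, *Pck1*, *Fbp1*, *G6pc*, *Slc37a4*, *Gys2*, *Dlat*, *Pdk1* and *Pdk2*.

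The comparison of the groups asks which of these genes differ when hepatocytes express Aloxe3. None of the members passed the test. Of the 34 members, 31 had a mean of at least 0.5 RPKM and were tested with limma on log2(RPKM + 1) among 12693 genes, and their adjusted p ran from 0.237 to 0.982. Over all tested genes 0.355% were called higher and 0.0394% lower at an adjusted p under 0.05, and 0 of 31 members is near that background. With voom in limma on reads derived from the RPKM steps, which called 1.17% of all genes higher and 0.205% lower, 0 members were called as well, with the smallest adjusted p at 0.0563 for *Hk1*, whose adjusted p ran from 0.0563 to 0.496 over all alternatives. At an unadjusted p under 0.05, 8 members were lower in the Aloxe3 group (*Hk1*, *Pfkl*, *Ldha*, *Dlat*, *Pklr*, *Tpi1*, *Aldoa* and *Pygl*) and 1 was higher (*Fbp1*), beside 5.42% of all genes lower and 7.31% higher. Every Aloxe3 library lay below every β-gal library for 10 members and above for 2, while 8.71% of all genes were apart in the lower direction and 11.2% in the higher. The log2 fold change was below 0 for 22 members and above 0 for 9, with a median of -0.057 over the members and 0.005 over all tested genes, of which 47.6% were below 0. Single members ran from -0.20 (*Pgk1*) to 0.17 (*Pdk2*), and their SE from 0.032 to 0.128. Both ends moved with 1 library left out, *Pgk1* between -0.337 and -0.079 and *Pdk2* between 0.091 and 0.236. Fold changes are on the log2(RPKM + 1) scale, which understates changes of low genes such as *Ldhb* or *Aldoc*.

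The median over the members differed between the Aloxe3 libraries. Against the β-gal mean, the median shift of the members was 0.001 in Aloxe3 replicate 7, -0.075 in replicate 8 and -0.113 in replicate 9, while the β-gal libraries lay between -0.015 and 0.022. In replicate 7, 15 members were below the β-gal mean and 16 above, with *Hk1* at -0.19 and *Pygl* at -0.10 among the former. Without replicate 9 the count was 20 lower and 11 higher, with 4 members lower and 3 higher at an unadjusted p under 0.05, and with quantile normalization it was 19 lower and 12 higher. Without replicate 7 it was 24 lower and 7 higher, with 8 lower and 1 higher at an unadjusted p under 0.05. Without β-gal replicate 1 the members lower and higher at that p numbered 3 and 2, without β-gal replicate 3 they numbered 4 and 2, and without Aloxe3 replicate 8 they numbered 5 and 2. The median log2 fold change of the members was -0.032 without Aloxe3 replicate 9, -0.034 without β-gal replicate 1 and -0.039 without β-gal replicate 3. It was -0.075 when Aloxe3 replicate 7 was left out. Among the 21 members with a mean of at least 5 RPKM it was 17 lower and 4 higher.

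**Figure D2:**
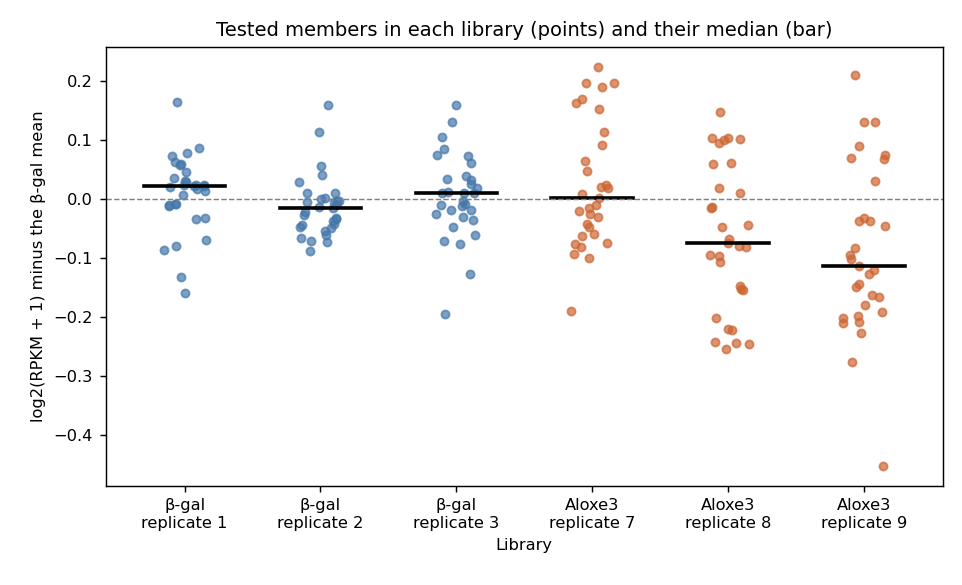
Each point is 1 of the 31 tested members in 1 library, as log2(RPKM + 1) minus the mean of the β-gal libraries, and the black bar is the median of the members in that library. The bar of Aloxe3 replicate 7 lies at 0.001, with the β-gal libraries, and those of replicates 8 and 9 lie at -0.075 and -0.113.

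At the first steps of glycolysis 6 of 8 members had a log2 fold change below 0, with a median of -0.034, and 0 were called. Hexokinase 1, *Hk1* (chr10:62268855-62379908, GRCm38), which phosphorylates glucose on the outer mitochondrial membrane, had the smallest p of all members. It was at 5.83, 5.55 and 5.67 RPKM in the β-gal libraries and at 4.86, 4.6 and 5.14 RPKM in the Aloxe3 libraries. The groups were apart, with the Aloxe3 mean at 85.6% of the β-gal mean, and limma gave a log2 fold change of -0.19 ± 0.048 (SE) at an adjusted p of 0.237. Hexokinase 2, *Hk2*, the insulin-regulated form of muscle and fat, was the more abundant of the pair, at 17.2, 16.2 and 17.4 RPKM against 17.0, 16.3 and 15.8 RPKM, and its groups overlapped.

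Phosphofructokinase commits glucose carbon to glycolysis, and its liver subunit *Pfkl* (chr10:77986947-78010083) had the second smallest p. *Pfkl* was at 39.0, 36.9 and 39.3 RPKM in the β-gal libraries and at 36.3, 32.3 and 31.5 RPKM in the Aloxe3 libraries. Replicate 7 lay just below the lowest β-gal library, and the log2 fold change was -0.20 ± 0.057 (adjusted p = 0.262). The muscle subunit *Pfkm* stood at 5.63, 5.99 and 6.43 RPKM against 7.18, 6.10 and 5.25 RPKM, so that the highest and the lowest library were both from the Aloxe3 group. The platelet subunit *Pfkp* was at 1.94, 1.73 and 1.80 RPKM against 1.74, 1.62 and 1.56 RPKM, with the groups overlapping by a small margin.

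The members that encode bifunctional enzymes setting fructose-2,6-bisphosphate, the activator of phosphofructokinase, were both low. *Pfkfb1*, the liver form, had 2.38, 2.28 and 1.92 RPKM in the β-gal group and 2.63, 2.53 and 2.36 RPKM in the Aloxe3 group. The lowest Aloxe3 library was below the highest β-gal library, and the log2 fold change was 0.14 ± 0.070 (adjusted p = 0.462). *Pfkfb3*, an inducible form with high kinase activity, had 2.25, 2.86 and 2.61 RPKM against 2.57, 2.72 and 2.27 RPKM, without an order of the groups. Glucose-6-phosphate isomerase, *Gpi1*, ranged from 69.5 to 72.6 RPKM over all libraries, with a log2 fold change of -0.022 ± 0.032. Its groups were apart, but the lowest β-gal library, at 70.61 RPKM, and the highest Aloxe3 library, at 70.60 RPKM, nearly met.

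In lower glycolysis, from aldolase to enolase, 7 of 8 members had a log2 fold change below 0, with a median of -0.104, and 0 were called. *Aldoa*, which splits fructose-1,6-bisphosphate, was at 241.4, 218.2 and 226.8 RPKM in the β-gal libraries and 221.2, 192.6 and 204.0 RPKM in the Aloxe3 libraries. Its log2 fold change was -0.15 ± 0.060 (adjusted p = 0.358), and replicate 7 exceeded the lowest β-gal library. *Tpi1*, which interconverts the triose phosphates, was at 176.6, 169.6 and 175.0 RPKM against 170.0, 156.1 and 156.5 RPKM. Here too replicate 7 lay within the β-gal range, with a log2 fold change of -0.11 ± 0.044 (adjusted p = 0.358).

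The brain-type aldolase gene *Aldoc* was low, at 1.18, 1.20 and 1.59 RPKM against 1.35, 1.09 and 1.04 RPKM. *Eno1*, the widely expressed enolase, was at 41.2, 41.5 and 41.8 RPKM in the β-gal libraries and at 40.9, 34.9 and 40.2 RPKM in the Aloxe3 libraries, where replicate 8 was the low one. The muscle enolase *Eno3* had 3.51, 3.67 and 3.31 RPKM against 4.15, 2.86 and 3.92 RPKM. In neither enolase gene did the difference exceed the spread of the Aloxe3 libraries, with adjusted p of 0.511 and 0.918. *Gapdh*, the glyceraldehyde-3-phosphate dehydrogenase gene often used as a reference, ranged from 36.7 to 41.1 RPKM over the libraries, the phosphoglycerate kinase gene *Pgk1* from 7.01 to 11.3 RPKM and the phosphoglycerate mutase gene *Pgam1* from 4.37 to 4.96 RPKM, and their groups overlapped. *Pgk1* had the largest SE of the members, 0.128, with both its highest library in the β-gal group (replicate 1) and its lowest in Aloxe3 replicate 9.

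Among pyruvate kinase and lactate dehydrogenase genes 3 of 4 had a log2 fold change below 0, with a median of -0.092, and 0 were called. *Ldha* (chr7:46841475-46855627), which reduces pyruvate to lactate, was at 270.5, 250 and 252.0 RPKM in the β-gal libraries and at 241.0, 223.6 and 222.4 RPKM in the Aloxe3 libraries. All Aloxe3 libraries were below all β-gal libraries, with a mean at 89.0% of the control mean and a log2 fold change of -0.17 ± 0.049 (adjusted p = 0.262). *Ldhb*, the heart-type subunit, had 0.730, 0.884 and 0.474 RPKM against 0.898, 0.671 and 0.795 RPKM, from 22 to 45 reads per library.

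*Pklr* (chr3:89136142-89146784), whose promoter is printed above, was at 79.7, 77.7 and 83.9 RPKM in the β-gal libraries and at 75.9, 75.2 and 69.9 RPKM in the Aloxe3 libraries. The groups were apart, with the Aloxe3 mean at 91.6% of the β-gal mean and a log2 fold change of -0.13 ± 0.046 (adjusted p = 0.334). *Pkm* was at 296.1, 279.8 and 277.6 RPKM against 272.3, 269.9 and 277.3 RPKM. Its groups were apart by less than the range of either.

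**Figure D3:**
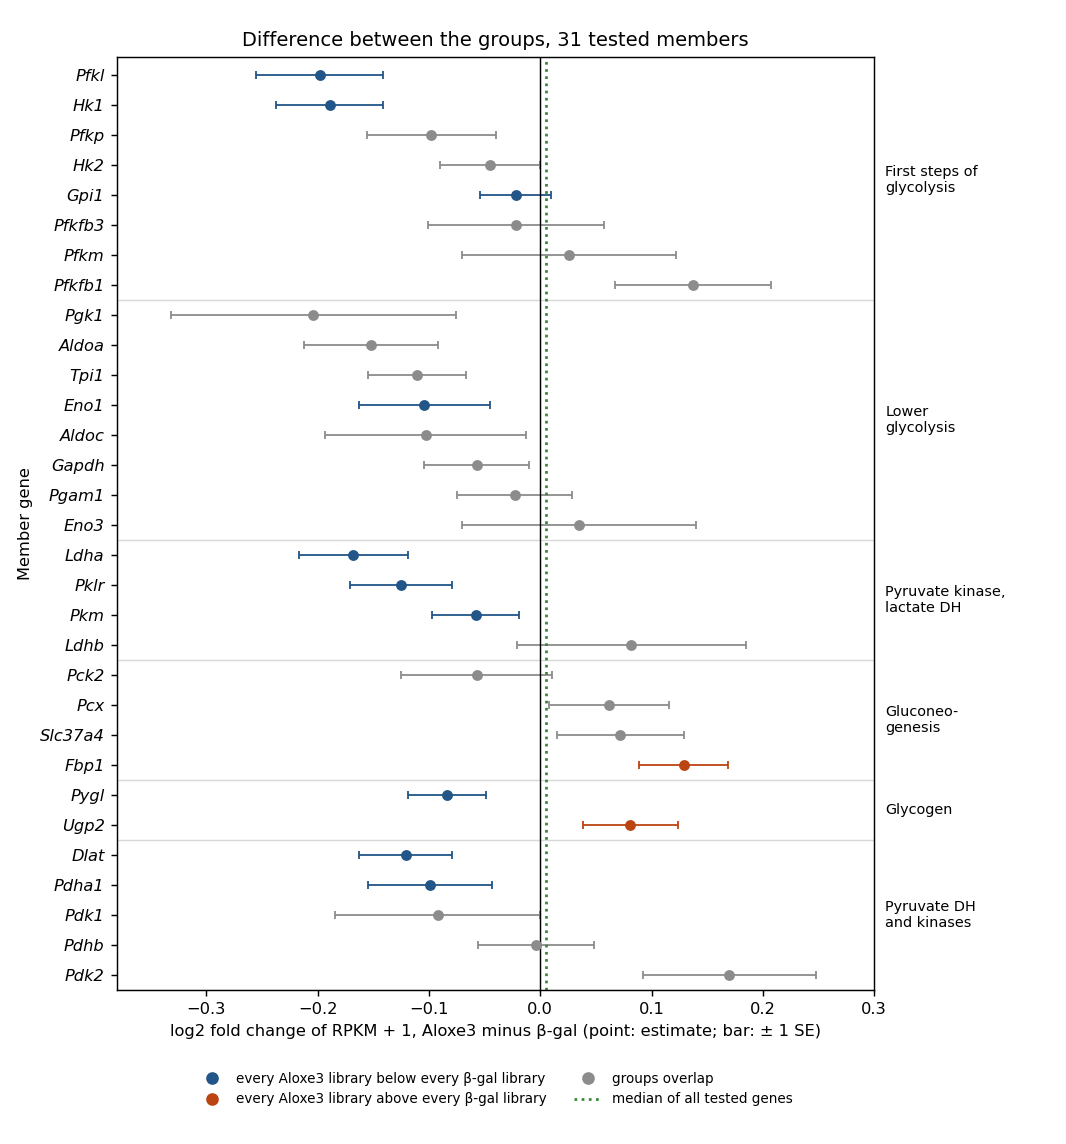
Difference between the groups for the 31 tested members, as the log2 fold change of RPKM + 1 (Aloxe3 minus β-gal) with bars of 1 SE, ordered within each role, with a dotted line at the median of all tested genes. Members in blue have every Aloxe3 library below every β-gal library (10 members) and those in red every library above (*Fbp1* and *Ugp2*), and 0 of the members passed the adjusted threshold.

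Of the 4 tested genes of gluconeogenesis 3 had a log2 fold change above 0, beside 6647 of all 12693 genes, with a median of 0.067 and 0 called. *Fbp1* (chr13:62864753-62888282), liver fructose-1,6-bisphosphatase, was at 6.46, 6.32 and 6.26 RPKM in the β-gal libraries and at 7.23, 6.84 and 7.05 RPKM in the Aloxe3 libraries. The groups were apart, the Aloxe3 mean was 110.9% of the β-gal mean, and the log2 fold change was 0.13 ± 0.040 (adjusted p = 0.283). It was the only member with an unadjusted p under 0.05 in the higher direction in the fit of all libraries.

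*Pcx*, pyruvate carboxylase, ranged from 14.0 to 15.7 RPKM over the libraries and the glucose-6-phosphate transporter gene *Slc37a4* from 1.73 to 2.07 RPKM, both with overlapping groups. *Pck2*, the mitochondrial phosphoenolpyruvate carboxykinase, was at 16.1, 15.5 and 14.6 RPKM in the β-gal libraries and at 15.6, 15.5 and 13.2 RPKM in the Aloxe3 libraries. Its log2 fold change was -0.057 ± 0.068 (adjusted p = 0.767).

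The fasting-induced genes at the ends of the pathway were near the detection limit in both groups. *Pck1* was at 0.0723, 0.0809 and 0.0592 RPKM in the β-gal libraries and at 0.08, 0.106 and 0.0662 RPKM in the Aloxe3 libraries, from 6 to 11 reads each. *G6pc* was at 0.0128, 0.0511 and 0.07 RPKM against 0.0649, 0.0409 and 0.157 RPKM, from 1 to 10 reads each. Neither was tested, and no fold change is given at these read numbers. No conclusion on a difference between the groups was drawn for these genes.

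Of the glycogen genes 2 were tested and 0 called. *Pygl*, liver glycogen phosphorylase, which releases glucose-1-phosphate from glycogen, was at 49.0, 47.1 and 49.7 RPKM in the β-gal libraries and at 45.3, 46.3 and 45.8 RPKM in the Aloxe3 libraries. *Ugp2*, which makes UDP-glucose for glycogen synthesis, was at 15.15, 14.56 and 15.02 RPKM against 16.7, 15.6 and 15.2 RPKM. The first had all Aloxe3 libraries below and the second all above the β-gal libraries, with log2 fold changes of -0.084 ± 0.035 (adjusted p = 0.382) and 0.081 ± 0.043 (adjusted p = 0.488). *Gys2* was at 0.210, 0.325 and 0.318 RPKM against 0.221, 0.260 and 0.285 RPKM, from 15 to 28 reads each, and was not tested.

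Of the genes that link pyruvate to the citric acid cycle, 4 of 5 had a log2 fold change below 0, with a median of -0.092 and 0 called. *Dlat*, the acetyltransferase (E2) of the pyruvate dehydrogenase complex, was at 16.7, 16.3 and 16.4 RPKM in the β-gal libraries and at 15.6, 15.3 and 14.3 RPKM in the Aloxe3 libraries. The groups were apart, with a log2 fold change of -0.12 ± 0.042 (adjusted p = 0.315). The E1 subunit genes ranged from 36.8 to 44.1 RPKM (*Pdha1*, groups apart with Aloxe3 below, adjusted p = 0.510) and from 24.3 to 28.1 RPKM (*Pdhb*, groups overlapping).

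Pyruvate dehydrogenase kinases switch the complex off by phosphorylation. *Pdk2*, the widely expressed kinase, was at 2.62, 3.12 and 3.42 RPKM in the β-gal libraries and at 3.63, 3.34 and 3.67 RPKM in the Aloxe3 libraries, where replicate 8 lay inside the β-gal range. In the fit of all libraries *Pdk2* had the largest positive log2 fold change of the members, 0.17 ± 0.078 (adjusted p = 0.419). With 1 library left out it ran from 0.091 to 0.236. Without Aloxe3 replicate 9 it was 0.15, below *Pfkfb1* at 0.168. *Pdk1*, a kinase known to be induced under hypoxia, was at 1.61, 1.54 and 1.87 RPKM against 1.85, 1.4 and 1.31 RPKM.

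The difference between liver isoforms and ubiquitous isoforms as classes was not tested. The median log2 fold change was -0.084 over the 5 tested liver isoforms of 8 (3 below 0 and 2 above), -0.058 over the 11 ubiquitous or other-tissue isoforms (8 below and 3 above) and -0.057 over the 15 members of neither class (11 below and 4 above). For 4 of the 5 tested liver isoforms the groups did not overlap (*Fbp1* higher, and *Pfkl*, *Pklr* and *Pygl* lower, each with an unadjusted p under 0.05), nor did they for 3 of the 11 ubiquitous isoforms (*Hk1*, *Eno1* and *Pkm*, all lower). Of the ubiquitous isoforms 2, *Hk1* and *Aldoa*, had an unadjusted p under 0.05, both lower. Beside these counts, 8.71% of all tested genes were apart in the lower direction and 11.2% in the higher. In limma 5.42% of all tested genes were lower and 7.31% higher at an unadjusted p under 0.05. The classes hold few genes, and these counts were not compared between them. To compare isoenzymes within a library, the RPKM of 1 form was divided by that of the others in 11 sets, 2 of which bring in genes that are not members. With 3 libraries against 3, the smallest two-sided p of an exact permutation test is 0.1, so that 0 of the 11 sets could pass.

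For pyruvate kinase the M-type prevailed in both groups. *Pklr* took 21.2%, 21.7% and 23.2% of the summed *Pklr* and *Pkm* RPKM in the β-gal libraries and 21.8%, 21.8% and 20.1% in the Aloxe3 libraries, so that *Pkm* was 3.54-fold and 3.71-fold as abundant. The difference in the log2 ratio was -0.068, and the groups overlapped (exact permutation p = 0.6, adjusted 0.867). In the pair of *Hk1* and *Hk2*, *Hk1* held 25.3%, 25.6% and 24.6% against 22.2%, 22.0% and 24.6%, and replicate 9 touched the β-gal range.

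For phosphofructokinase the liver form had the larger share and the lower value in the Aloxe3 group. *Pfkl* was 83.7%, 82.7% and 82.7% of the summed *Pfkl*, *Pfkm* and *Pfkp* RPKM in the β-gal libraries and 80.3%, 80.7% and 82.3% in the Aloxe3 libraries. The groups were apart, the log2 ratio differed by -0.19, and the exact permutation p was 0.1 (adjusted 0.52). It was the only one of the 11 sets whose groups did not overlap.

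Other shares followed the tissue form at some steps and not at others. *Pygl* was 85.8% ± 0.493 of the glycogen phosphorylase RPKM in the β-gal libraries and 85.8% ± 1.0 in the Aloxe3 libraries (SD, n = 3), with the brain form *Pygb* at 7.56, 7.72 and 8.00 against 7.89, 7.26 and 6.77 RPKM and the muscle form *Pygm* at most at 0.358 RPKM. *Gys2*, in contrast, was 7.25% ± 1.71 against 7.09% ± 0.98 of the glycogen synthase RPKM, the rest being the muscle form *Gys1* at 3.73, 3.45 and 3.75 against 3.49, 3.15 and 3.43 RPKM. *Pck1* was 0.458% ± 0.0585 against 0.562% ± 0.1 of the carboxykinase RPKM, with *Pck2* as the rest.

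*Ldha* held 99.6% to 99.8% of the lactate dehydrogenase RPKM, and *Aldoa* 99.3% to 99.5% of *Aldoa* plus *Aldoc*, in all libraries. *Eno1* held 92.2% ± 0.404 against 91.4% ± 0.87, *Pfkfb1* 46.0% ± 4.76 against 49.9% ± 1.5 of *Pfkfb1* plus *Pfkfb3*, and *Pdk1* 35.5% ± 2.54 against 29.9% ± 3.75 of *Pdk1* plus *Pdk2*. All these sets hold members only and leave out other genes of these families. Among those left out is a pyruvate dehydrogenase kinase gene with a level above *Pdk1* and *Pdk2*. The groups overlapped in each of these sets, with exact permutation p of 0.2 to 1.0.

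**Figure D4:**
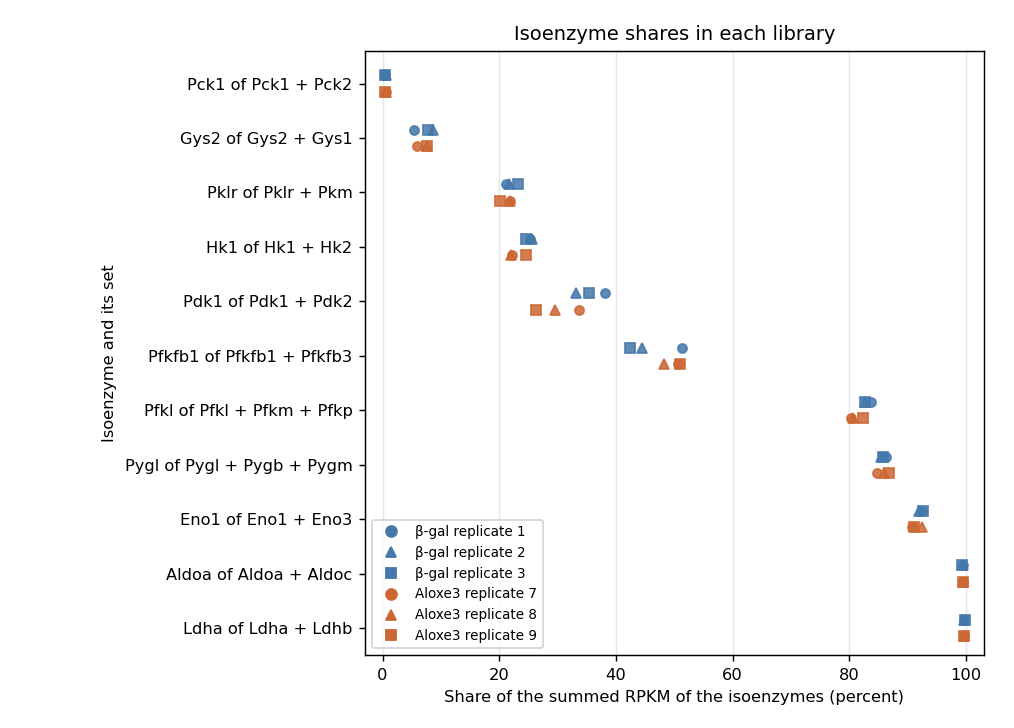
Share of 1 isoenzyme in the summed RPKM of its set, in percent, in each of the 6 libraries (blue, β-gal; orange, Aloxe3; the symbol gives the replicate). *Pklr* lies at 20.1% to 23.2%, *Pck1* near 0%, and of the 11 sets the groups are apart for *Pfkl*.

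To place the members in the rest of the pathway, 78 further genes of glucose sensing, gluconeogenesis, glycogen, pyruvate and the pentose phosphate pathway were counted, of which 69 were tested. Of these, 2 passed the adjusted threshold, both higher, and 0 lower, beside 0.355% and 0.0394% of all genes. They had a median log2 fold change of -0.003, with 36 below 0 and 33 above, against 22 below and 9 above among the members. The groups were apart for 6 of them in the higher and 5 in the lower direction, beside 11.2% and 8.71% of all genes. Of the 8 pentose phosphate genes 7 were below 0, with 0 called.

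*Mlxipl* (chr5:135089890-135138382), the ChREBP gene, rose in the Aloxe3 group. It was at 12.4, 13.5 and 14.5 RPKM in the β-gal libraries and at 18.5, 19.6 and 21.2 RPKM in the Aloxe3 libraries. All 3 Aloxe3 libraries lay above the β-gal range, with a mean at 146.7% of the control mean and a log2 fold change of 0.52 ± 0.067 (adjusted p = 0.0271). With any 1 library left out its log2 fold change stayed between 0.47 and 0.57, and its adjusted p was 0.0566 to 0.129, so that the call needed all 6 libraries. Over all alternatives its adjusted p ran from 0.000167 with voom on derived reads to 0.155 with no filter on low values. Its binding partner gene *Mlx* was at 17.7 ± 0.871 against 16.6 ± 0.501 RPKM (SD, n = 3; adjusted p = 0.459) and was chosen after its values were seen. *Pklr*, the member with the carbohydrate response element match, stood at 91.6% of the control mean in the same libraries and was not called. A relation between *Mlxipl* and *Pklr* was not tested.

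*Gpt2* (chr8:85492576-85527560), the mitochondrial alanine transaminase that turns alanine into pyruvate, rose as well. It was at 33.3, 34.2 and 33.5 RPKM in the β-gal libraries and at 42.2, 41.9 and 39.4 RPKM in the Aloxe3 libraries. Its log2 fold change was 0.28 ± 0.038 (adjusted p = 0.0328), with a mean at 122.4% of the control mean. Left-out libraries gave an adjusted p of 0.0264 to 0.142, under 0.05 only without Aloxe3 replicate 9, and the range over all alternatives was 0.00138 to 0.146. The cytosolic transaminase gene *Gpt* was at 8.56, 7.86 and 7.68 RPKM against 6.95, 7.20 and 6.60 RPKM, with the groups apart in the other direction and an adjusted p of 0.253.

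Further genes with small p were *Pgm3*, a phosphoglucomutase family gene of the hexosamine pathway, at 6.49, 6.69 and 6.68 RPKM against 6.19, 6.10 and 5.84 RPKM (adjusted p = 0.321), *G6pdx* and *Stbd1*. *G6pdx*, which opens the pentose phosphate pathway, had 46.8, 48.4 and 46.9 RPKM against 44.0, 43.3 and 45.7 RPKM (adjusted p = 0.343). *Stbd1*, which tethers glycogen to membranes, had 34.1, 30.2 and 27.9 RPKM against 28.0, 25.0 and 27.0 RPKM (adjusted p = 0.346), with overlapping groups. None of the 3 passed the test.

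**Figure D5:**
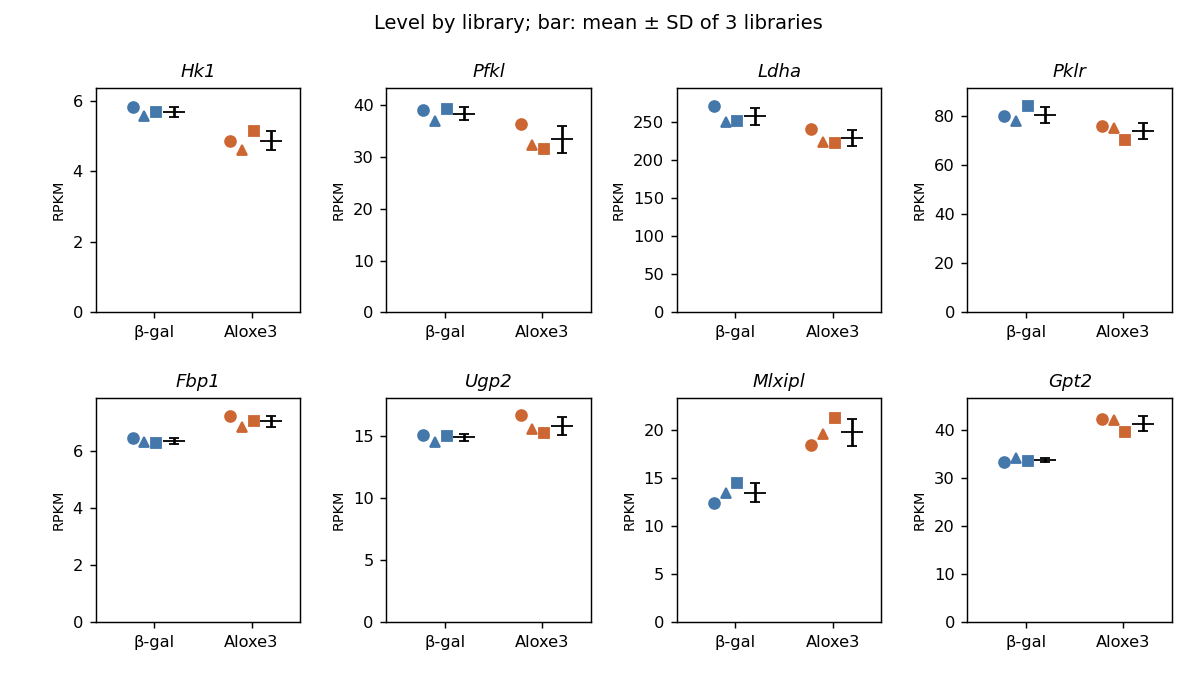
Level in RPKM of 6 members (*Hk1*, *Pfkl*, *Ldha*, *Pklr*, *Fbp1*, *Ugp2*) and of the called genes *Mlxipl* and *Gpt2* in each library, with the mean and SD of 3 libraries to the right of each group, on axes that start at 0. The groups are apart in each panel, and *Mlxipl*, with means of 13.5 and 19.8 RPKM, has the largest ratio.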

How the data were processed

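RNA from 6 libraries was poly-A selected and sequenced as single reads of 50 bases. Per the labels and the study's methods, the authors aligned reads with STAR 2.0.4b to GRCm38.p2, counted unambiguous unique reads per gene with featureCounts 1.4.5 of Subread, and deposited RPKM values, which were used as they are. How RPKM was made from counts, and with which gene lengths, is not given in the sources used here. Reads per gene were derived from the RPKM steps: with the GENCODE M21 exon length for 16416 of 24989 genes above 0 (65.69%, whole within 0.01 reads), while 8573 genes needed another length, for which the shortest fitting one was used and reads are known only up to a factor shared by all libraries. Depth, 25521908 to 32431318 reads per library, makes 1 read on 1 kb worth 0.0308 to 0.0392 RPKM. Read numbers cover counting error only.

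Groups come from the labels. The 12693 genes whose mean over the 6 libraries reached 0.5 RPKM were tested as log2(RPKM + 1) in limma 3.58.1 (R 4.3.3; lmFit, eBayes with trend), with Benjamini-Hochberg adjustment at 0.05 over all tested genes. Ratios of isoenzymes were tested by exact two-sided permutation with adjustment over 13 sets, of which 11 are given; some genes are not reported here. The fit was tested on simulated data first. It called 93 of 98 genes with a 2-fold change, 21 of 98 with a 1.25-fold change and 5 of 12491 unchanged genes. Small changes can therefore be missed. The members and gene lists were chosen with earlier results of these data known. Values per library are given for the members with the 12 smallest p, members of an isoenzyme set, *Pck1* and *G6pc*; the others by range. Of the other pathway genes, called ones, the 5 with the smallest p and those in a ratio are named. Promoters are from RefSeq (GRCm38.p6), coordinates from GENCODE M21. Alternatives were another pseudocount (0.1), no filter, a filter at 5 RPKM, quantile normalization, scaling libraries to 1 common median, eBayes without trend, voom on derived reads, and each library left out. The carbohydrate response element search, the shared 50-base windows and the counts of direction under each alternative were added after seeing the data. Tables and ratios were made in Python 3.11.15 using scipy 1.17.1, pandas 2.3.3 and numpy 2.4.6.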

Additional observations from a re-analysis of the deposited data

How the results depend on the processing

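Of the members, 0 were called under each of the 13 alternatives, and the smallest adjusted p of any member was 0.0563, for *Hk1* with voom on derived reads. The members' median log2 fold change stayed below 0 throughout. Of 393 values of single members under the alternatives, 379 kept their direction and 14 in 9 members, all uncalled, turned it. With quantile normalization these were *Gpi1* (0.011), *Pkm* (0.003) and *Pdhb* (0.008). With 1 library left out they were *Pfkm* (-0.074 to 0.121; below 0 without β-gal replicate 1 or Aloxe3 replicate 7), *Pfkfb3* (-0.088 to 0.035; above 0 without β-gal replicate 2 or Aloxe3 replicate 9), *Pgam1* (-0.07 to 0.006; above 0 without Aloxe3 replicate 8), *Eno3* (-0.045 to 0.163; below 0 without Aloxe3 replicate 7 or 9), *Ldhb* (-0.016 to 0.161; below 0 without β-gal replicate 3), *Pck2* (-0.096 to 0.015; above 0 without Aloxe3 replicate 9) and *Pdhb* (-0.056 to 0.044; above 0 without β-gal replicate 3 or Aloxe3 replicate 9). Over all genes 50 were called, but 7 with no filter, 174 with voom on derived reads and 6 to 19 with 1 library left out. Of the other pathway genes 2 were called, but 0 with no filter, 0 with eBayes without trend and 0 to 1 with 1 library left out (*Gpt2*, without Aloxe3 replicate 9), and the cause was not tested. No paired analysis was possible because the groups share no replicate number. With 3 libraries a group the SE of a member's log2 fold change was 0.032 to 0.128, and *Pck1* and *G6pc* rest on at most 11 and 10 reads per library.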
